A study of Homo sapiens with 21 samples.

Results

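The ERBB receptors and their EGF-like ligands were followed in HMLE cells through 20 days of TGFβ treatment. The 10 genes were taken by symbol, 3 receptor genes (EGFR, ERBB2 and ERBB3) and 7 ligand genes (AREG, EREG, EPGN, BTC, TGFA, HBEGF and NRG1), from the 23201 symbols listed. HMLE is an established line of human mammary epithelial cells immortalized with hTERT and the SV40 early region, and TGFβ is a cytokine that drives epithelial cells through EMT, the shift from an epithelial to a mesenchymal state. RNA was sequenced from untreated cells (d0) and from cells at 1, 4, 7, 10, 15 and 20 days of TGFβ (d1, d4, d7, d10, d15 and d20), with 3 libraries each. All groups are the same line and genotype seeded at the same density, and the TGFβ dose and the culture medium were not given in the sources used here. The only untreated group is d0, so time in culture and TGFβ cannot be told apart, and every comparison of a treated day with d0 shares the same 3 untreated libraries.

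ERBB receptors are tyrosine kinases at the cell surface that pair with each other when a ligand binds and then signal through the RAS-ERK and PI3K-AKT pathways. EGFR binds AREG, EREG, EPGN, BTC, TGFA and HBEGF, while ERBB3, whose own kinase is weak, binds neuregulins such as NRG1 and signals mainly by pairing with ERBB2, which has no known ligand. The ligands are made as membrane-anchored precursors that ADAM proteases cut loose, and in mammary epithelium AREG is known for its part in duct growth.

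The deposited value of a gene is its reads divided by 1 size factor per library, called normalised reads below, and between 18847917 and 22667754 reads per library were recovered from it. A gene was tested where its mean was at least 10 over the 21 libraries, which left 13343 genes and 9 of the 10 members, with BTC below the limit. A change was called at a limma adjusted p (Benjamini-Hochberg) under 0.05 and at least 2-fold. Libraries of a timepoint differed by 0.214 to 0.243 on the log2 scale (root mean square over genes), except that 1 of the 3 d7 libraries stood 0.457 and 0.472 from the others, and members' d7 values are also given without it where that moved a call or the size of a difference. Of the immune markers, 3 of 5 were at or below 3 reads in every library, and none had more than 59 reads. Of the endothelial markers, 1 of 4 was at or below 3 reads in every library, and KDR had up to 291. All 5 mammary basal markers, 5 of 6 luminal markers and all 6 general epithelial markers were above 3 reads in all 21 libraries. The general epithelial markers fell all the same, from a median sum of 12947 normalised reads at d0 to 3953 at d20. The summed mesenchymal markers went from a median of 9482 normalised reads at d0 to 605000 at d20. Most of that sum was FN1, with up to 551272 reads in a library, beside at most 68222 for VIM and 767 for the others. The summed fibroblast markers went from 493 to 28490, with 2 of 6 at or below 3 reads in every library. Nearly all of that sum was COL1A1, with up to 28366 reads in a library, beside at most 706 for any other fibroblast marker. Rescaling each library to the same total moved the middle gene of all those tested to a log2 fold change between -0.20 and -0.14 against d0, from between 0.00 and 0.03 as deposited, and the d0 libraries had the smallest normalised totals.

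Across the treatment, the receptor genes and the ligand genes did not move together. As deposited, ERBB2, ERBB3 and the low-abundance ligand genes EPGN and BTC had every treated library below the untreated ones. EGFR and AREG had every treated library above them. HBEGF was lowest on d7 and d15, and TGFA, NRG1 and EREG were above d0 on some days and below it on others. Of the 9 members tested, 2 (AREG and EGFR) were called higher on at least 1 treated day, beside 16.5% of all genes tested, and 3 (ERBB3, EPGN and HBEGF) were called lower on at least 1 day, beside 15.4%. All 18 treated libraries lay above all 3 d0 libraries for AREG and EGFR, 2 of 9 members (background 14.6%), and below them for EPGN, ERBB2 and ERBB3, 3 of 9 (background 9.98%). These 2 counts hold for the deposited values and were not repeated after rescaling to the same total. With that rescaling EGFR at d1, d10 and d20 no longer passed limma against d0. In bulk RNA, fewer cells with a transcript and less transcript per cell cannot be told apart.

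The AREG, EREG, EPGN and BTC genes are neighbours. In the RefSeq order of protein-coding genes EPGN, EREG, AREG and BTC follow each other without a gene between them, on chromosome 4, and their untreated-to-treated differences had different signs. The 250 bases before each start site are printed from RefSeq (GRCh38.p14, while the submitters' processing notes name hg19) to show what the promoters of these neighbours share, with capitals marking the TATA-type hexamer TATAAA and the E-box CACCTG, or its reverse complement CAGGTG, the letters bound by the EMT repressors of the SNAI and ZEB families.
EPGN promoter, chr4:74308220-74308469, plus strand: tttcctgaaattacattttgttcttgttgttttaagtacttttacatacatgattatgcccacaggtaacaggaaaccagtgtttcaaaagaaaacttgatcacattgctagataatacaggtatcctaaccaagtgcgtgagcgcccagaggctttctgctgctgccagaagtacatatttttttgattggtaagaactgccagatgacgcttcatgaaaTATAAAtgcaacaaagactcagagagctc
EREG promoter, chr4:74364895-74365144, plus strand: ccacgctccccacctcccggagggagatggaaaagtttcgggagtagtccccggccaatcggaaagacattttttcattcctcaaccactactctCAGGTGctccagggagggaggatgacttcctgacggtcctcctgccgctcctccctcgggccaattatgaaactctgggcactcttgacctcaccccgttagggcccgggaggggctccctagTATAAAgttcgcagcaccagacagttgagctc
AREG promoter, chr4:74444886-74445135, plus strand: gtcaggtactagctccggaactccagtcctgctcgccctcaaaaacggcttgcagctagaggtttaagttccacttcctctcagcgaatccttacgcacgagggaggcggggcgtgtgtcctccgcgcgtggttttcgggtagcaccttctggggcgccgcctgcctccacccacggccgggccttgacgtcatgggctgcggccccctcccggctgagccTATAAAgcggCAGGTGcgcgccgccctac
BTC promoter, chr4:74794524-74794773, minus strand: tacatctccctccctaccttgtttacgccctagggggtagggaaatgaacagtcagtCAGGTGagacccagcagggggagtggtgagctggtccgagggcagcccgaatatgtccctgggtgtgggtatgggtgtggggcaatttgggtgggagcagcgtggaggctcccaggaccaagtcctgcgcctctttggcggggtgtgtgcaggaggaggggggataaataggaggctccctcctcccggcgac
The hexamer TATAAA was found in 3 of these 4 promoters, at -29 to -24 from the start in AREG and EPGN and at -32 to -27 in EREG, and 11.1% of the 27305 RefSeq promoters of this length hold it on either strand. The E-box was found at -19 to -14 in AREG, -155 to -150 in EREG and -193 to -188 in BTC, and 17.5% of all promoters hold it. These windows differ in base composition, with a GC content of 38.0% in EPGN, 58.0% in EREG, 65.2% in AREG and 62.0% in BTC, against a median of 58.0% over all promoters. Among the other members, HBEGF held an E-box at -248 to -243 and ERBB2 held the AP-1 letters TGANTCA at -222 to -216 (6.6% of all promoters). For each gene only a single RefSeq start site was searched, and any other start site was not. The SMAD letters GTCTAGAC and the CAGA box AGCCAGACA, held by 0.176% and 0.256% of all promoters, were found in none of the 8 member promoters searched, which left out ERBB3 and NRG1. A match is a run of letters and not a measured binding site.

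Among the receptors, ERBB3 had the widest range. ERBB3 had 1070, 1042 and 1058 normalised reads in the 3 untreated libraries and 317, 321 and 282 after 1 day. The 3 d10 libraries had 79.6, 95.2 and 95.8 normalised reads of ERBB3, the 3 d15 libraries 464, 459 and 477, and the 3 d20 libraries 153, 164 and 150. The fall was therefore not a steady one, with a first low on d1, a partial return through d4 (432 ± 34.4, SD, n = 3) and d7 (449 ± 102), a much lower level on d10, a second return on d15 and a second low on d20, and no treated library reached the untreated range. The log2 fold change of ERBB3 against d0 was -1.78 ± 0.12 (SE) on d1, -1.29 on d4, -1.26 on d7, -3.54 on d10, -1.18 on d15 and -2.76 on d20, with a highest limma adjusted p of 7.2e-09, so that ERBB3 was 11.6-fold lower on d10. From d7 to d10 ERBB3 fell by 2.28 on the log2 scale (limma adjusted p = 1.7e-12), from d10 to d15 it rose by 2.36 (8.3e-14) and from d15 to d20 it fell by 1.58 (1.0e-10). The outlying d7 library had the lowest d7 value, 333 normalised reads against 523 and 490, and the d7 difference was -1.06 without it. In the order of its levels, d0, d15, d7, d4, d1, d20 and d10, the libraries of d15 and d7 and those of d7 and d4 overlapped. Both overlaps came from the outlying d7 library, since the others were above the highest d15 (477) and d4 (466) libraries. Without it d7 stood between d0 and d15, and d7 was above d4 by 0.23 on the log2 scale (limma adjusted p = 0.016).

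ERBB2 went through nearly the same order of timepoints over a narrower range. ERBB2 had 2977, 2953 and 2972 normalised reads in the untreated libraries and 1696, 1665 and 1624 at d10, its lowest level. All other treated libraries lay between 1881 and 2734 normalised reads of ERBB2, below every untreated library and above every d10 library. ERBB2 fell on d10 by 0.84 ± 0.05 on the log2 scale (SE, limma adjusted p = 5.8e-13), and its differences on the other days were -0.58 on d1, -0.46 on d4, -0.21 on d7, -0.26 on d15 and -0.62 on d20, all at an adjusted p of 3.3e-04 or lower and none of them 2-fold. After rescaling to the same total or quantile normalization the d10 difference of ERBB2 was past 2-fold, at -1.06 and -1.01. The order was d0, d7, d15, d4, d1, d20 and d10, in which d7 and d15 overlapped and d1 and d20 overlapped.

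As deposited, EGFR was above untreated cells where ERBB2 and ERBB3 were below them, with its peaks at d4 and d15. EGFR had 5169, 4799 and 4846 normalised reads in the untreated libraries, 10222, 10081 and 10029 at d4, and 11817, 11446 and 10720 at d15. Between the peaks EGFR stood at 8161 ± 395 (SD, n = 3) on d7 and 6088 ± 196 on d10, and it was 5847 ± 248 on d1 and 5955 ± 63.2 on d20. Both peaks passed the 2-fold limit, by a log2 fold change of 1.03 ± 0.04 (SE, limma adjusted p = 6.8e-15) at d4 and 1.20 ± 0.04 (3.7e-16) at d15, and d15 was above d4 by 0.16 (adjusted p = 0.0030). Rescaled to the same total, EGFR at d4 was 0.84 above d0 on the log2 scale and no longer 2-fold, while d15 stayed at 1.04. The smaller differences at d1 (0.24), d10 (0.30) and d20 (0.27) became 0.05, 0.07 and 0.07 with that rescaling and no longer passed limma, beside a median of all genes that had then dropped below 0. With quantile normalization they were 0.084 at d1 (limma adjusted p = 0.096), 0.095 at d10 (0.056) and 0.132 at d20 (0.011). Of these only the d20 difference passed. The later steps of EGFR had the direction of the other receptors. From d7 to d10 EGFR fell by 0.42 on the log2 scale (limma adjusted p = 2.4e-08) and ERBB2 by 0.63. From d10 to d15 EGFR rose by 0.90 and ERBB2 by 0.57. From d15 to d20 EGFR fell by 0.93 (7.6e-14) and ERBB2 by 0.35. ERBB3 fell, rose and fell on the same steps.

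**Figure D1:**
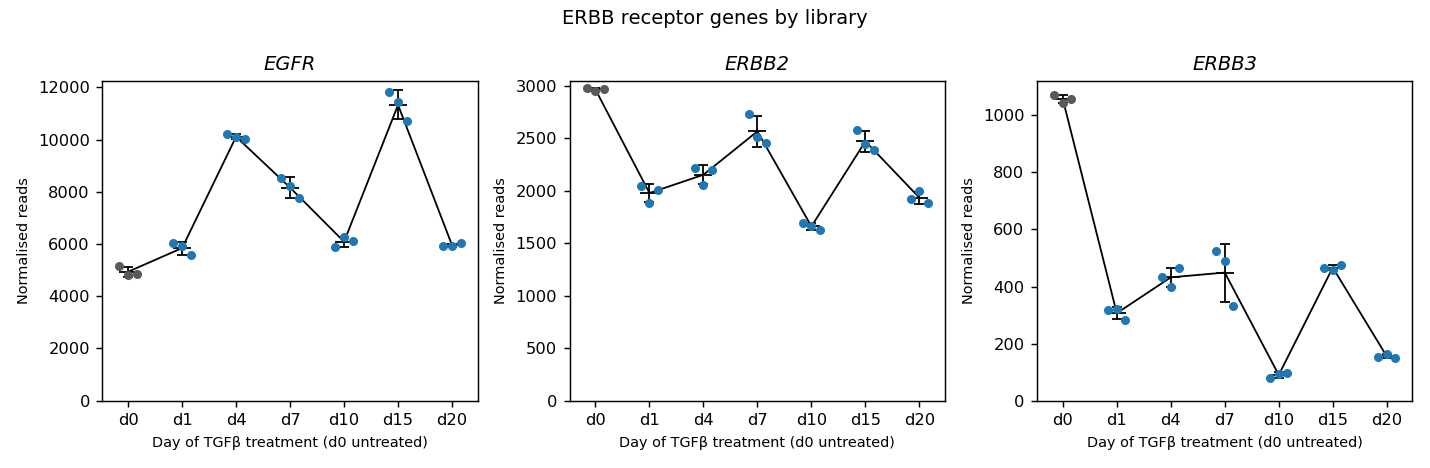
Normalised reads (vertical axes, from 0) of EGFR, ERBB2 and ERBB3 in each library (points, grey for untreated and blue for TGFβ) by day, with the mean and SD of 3 libraries (line and bars). EGFR is highest at d4 and d15, and ERBB2 and ERBB3 are highest at d0 and lowest at d10.

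The balance between the receptor transcripts shifted with these changes. The ratio of EGFR to ERBB3 reads was 4.67 ± 0.14 (SD, n = 3) on d0, between 18.8 and 24.3 on d1, d4, d7 and d15, 38.4 ± 2.1 on d20 and 67.8 ± 5.3 on d10. EGFR to ERBB2 went from 1.66 ± 0.06 at d0 to 4.70 ± 0.19 at d4 and 4.58 ± 0.09 at d15. Per kilobase of the longest GENCODE transcript, ERBB2 (619 normalised reads per kb) was above EGFR (503) at d0 and EGFR was above ERBB2 on each treated day, with 1153 against 516 at d15. This order depends on the transcript length taken, which ranged from 691 to 9821 bases for EGFR.

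ERBB4, the remaining receptor of the family, had at most 4 reads in a library and was at or below 3 reads in 20 of 21 libraries, so that no change of it was detectable at this depth.

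Among the ligands, AREG was called higher than d0 on every treated day. AREG, which binds EGFR with low affinity, had 39.2, 39.9 and 36.6 normalised reads in the untreated libraries, 97.3, 92.3 and 132 at d1, and 365, 393 and 369 at d15. At d7 AREG had 380 and 353 normalised reads in 2 libraries and 114 in the outlying one, and it was 121 ± 20.4 (SD, n = 3) at d4, 214 ± 20.3 at d10 and 225 ± 35.0 at d20. The lowest treated library (92.3) was above the highest untreated one (39.9). The log2 fold change of AREG was 1.44 ± 0.28 (SE) on d1 (limma adjusted p = 1.6e-04), 1.61 on d4, 2.66 on d7, 2.44 on d10, 3.25 on d15 (7.9e-10) and 2.50 on d20, a 9.52-fold difference on d15. Without the outlying d7 library the d7 value was 3.22, and AREG then fell from d7 to d10 by 0.78 on the log2 scale (adjusted p = 2.4e-06), a step that did not pass with all libraries (-0.21, adjusted p = 0.50). From d15 to d20 AREG fell by 0.75 (limma adjusted p = 0.021). That step did not pass without 1 of the d15 libraries (0.054) or 1 of the d20 libraries (0.077). RefSeq gives AREGB as another name of AREG, and reads of a near-identical second copy annotated under that name could have been split from AREG in the counting, so its level is uncertain.

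EREG, the neighbour of AREG, did not follow it. EREG had 503, 372 and 458 normalised reads in the untreated libraries, 556, 516 and 568 at d4, and 580, 547 and 561 at d20. The lower days of EREG were d15, with 362, 314 and 367 normalised reads, and d7, with 423, 349 and 229 of which the last is the outlying library. None of these differences from d0 was 2-fold, and that at d4 (0.31 on the log2 scale, limma adjusted p = 0.054) did not pass. EREG was lower at d7 by a log2 fold change of -0.45 ± 0.14 (SE, limma adjusted p = 0.0081) and at d15 by -0.35 (0.030), and higher at d20 by 0.35 (0.035), but the d20 difference was 0.15 and did not pass after rescaling to the same total (adjusted p = 0.33). With some single libraries left out, the differences at d7, d15 and d20 also no longer passed limma, and without the outlying library EREG at d7 was -0.20 (adjusted p = 0.039). The ratio of AREG to EREG reads went from 0.088 ± 0.016 (SD, n = 3) at d0 to 1.09 ± 0.14 at d15.

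EPGN and BTC, the outer neighbours, were both highest in untreated cells. EPGN, which binds EGFR with low affinity, had 66.8, 67.0 and 72.2 normalised reads at d0, 33.8, 27.2 and 36.2 at d10, and 23.5, 32.6 and 13.5 at d15. EPGN was called lower at d10 (log2 fold change -1.07 ± 0.23, SE, limma adjusted p = 3.6e-04) and at d15 (-1.61, 2.1e-06). It passed without being 2-fold at d1 (-0.68), d7 (-0.81) and d20 (-0.77), and not at d4 (-0.28, adjusted p = 0.29). The d7 difference was -1.01 with quantile normalization and -0.66 without the outlying library (limma adjusted p = 0.013). The d10 difference was under 2-fold with quantile normalization (-0.83), a pseudocount of 10 (-0.90) or without 1 d10 library (-0.95). BTC, which binds EGFR and ERBB4, had 16.02, 22.05 and 14.84 normalised reads at d0 and between 1.00 and 12.66 in the treated libraries, with no overlap. These are counts of at most 26 reads, and without the filter on low values BTC passed limma at d4 (-1.81, adjusted p = 0.0070), d10 (-1.63, 0.015), d15 (-1.29, 0.046) and d20 (-1.65, 0.015) and did not at d1 (-1.01, 0.15) or d7 (-1.05, 0.12).

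TGFA and NRG1 were above d0 on some days and below it on others. TGFA, a high-affinity ligand of EGFR, had 1012, 985 and 1104 normalised reads at d0, 1563, 1610 and 1648 at d1, and 771, 756 and 709 at d15. The d1, d4 and d10 libraries of TGFA were all above d0 and the d15 libraries all below it. Its log2 fold change was 0.64 ± 0.05 (SE, limma adjusted p = 9.1e-11) on d1, 0.47 on d4, 0.47 on d10 and -0.47 (5.1e-09) on d15, and the values of 0.10 on d7 and -0.02 on d20 did not pass. None of these was 2-fold against d0, while d15 was 2.16-fold below d1.

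NRG1, a ligand of ERBB3 and ERBB4, had 267, 274 and 262 normalised reads at d0 and 509, 530 and 548 at d1. As deposited it was back at 277.6, 251.2 and 259.5 normalised reads on d4, rose again to 464, 446 and 441 on d10, and was at 164, 177 and 179 on d15 and 400, 394 and 424 on d20. Rescaled to the same total, the d4 difference of NRG1 from d0 was -0.22 on the log2 scale and passed (limma adjusted p = 0.011). The high and low days of NRG1 did not overlap with each other. NRG1 was higher on d1 by a log2 fold change of 0.98 ± 0.07 (SE, limma adjusted p = 2.6e-10, just under 2-fold), on d10 by 0.75 (1.4e-08) and on d20 by 0.60 (4.7e-07), and was lower with values of -0.62 on d15 (1.3e-07) and -0.21 on d7 (0.017). The d7 value was -0.30 without the outlying library and -0.12 without another d7 library, when it did not pass (adjusted p = 0.15), nor did it with only the 2 timepoints in the fit (0.13) or without 1 d0 library (0.053). Steps between neighbouring timepoints passed 2-fold 3 times, -1.01 from d1 to d4, -1.37 from d10 to d15 and 1.22 from d15 to d20, each at a limma adjusted p of 3.9e-10 or lower. The step from d1 to d4 was just past 2-fold and fell short of it with a pseudocount of 10 (-0.98) and when any of 3 single libraries was left out (1 at d1 and 2 at d4). The step from d7 to d10 was 0.96 with all libraries and 1.05, past 2-fold, without the outlying d7 library. At d10 NRG1 was high while its receptor ERBB3 was at its lowest, and at d15 NRG1 was lowest while ERBB3 was at 466 ± 9.18 (SD, n = 3).

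HBEGF, a ligand of EGFR and ERBB4 that also binds heparan sulfate, varied widely among the untreated libraries, with 313, 165 and 261 normalised reads. HBEGF had 103, 119 and 71.5 normalised reads at d15 and 130, 131 and 133 at d7, all below the lowest untreated library. It was called lower at d15 by a log2 fold change of -1.30 ± 0.18 (SE, limma adjusted p = 1.0e-06), and was -0.85 at d7 (2.7e-04, past 2-fold only after rescaling, at -1.04, or without 1 d0 library, at -1.12) and -0.44 at d4 (0.033), of which the d4 value did not pass when single d0 or d4 libraries were left out. HBEGF fell from d10 to d15 by 1.27 on the log2 scale (adjusted p = 1.4e-06) and rose from d15 to d20 by 1.08 (1.5e-05).

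**Figure D2:**
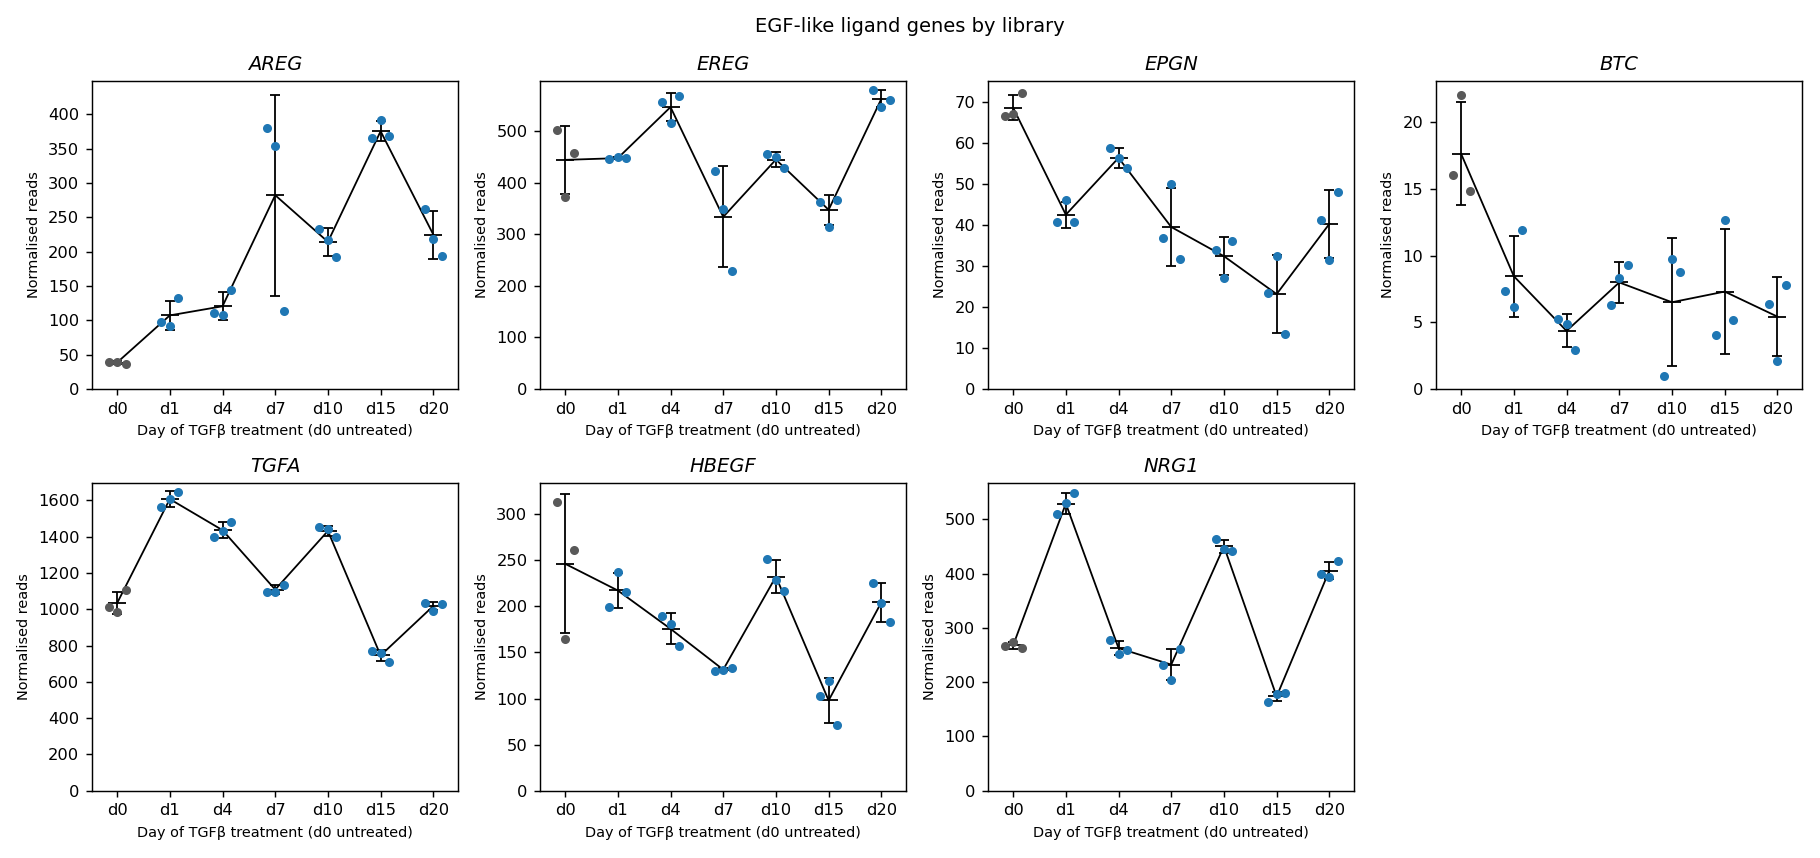
Normalised reads (vertical axes, from 0) of the 7 ligand genes in each library (points, grey for untreated and blue for TGFβ) by day, with the mean and SD of 3 libraries (line and bars). AREG is above d0 on every day with 1 low library at d7, EPGN and BTC are below d0 on every day, and TGFA, HBEGF and NRG1 are lowest at d15.

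The shares of AREG and TGFA among the ligands were furthest from d0 at d15. Per kilobase of the longest GENCODE transcript, TGFA made up 41.5% ± 2.9 (SD, n = 3) of the summed level of the 7 ligands at d0 and AREG 5.41% ± 0.68. At d15 AREG made up 47.1% ± 1.3 and TGFA 26.9% ± 0.8. The summed level itself was 579 normalised reads per kb at d0, 643 at d15 and highest at d10, with 804. These shares depend on the transcript taken, which for TGFA ranged from 568 to 4310 bases.

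Of the 4 ligand genes outside the 10, NRG4 had the highest level at d0, with 148 normalised reads per kb of its longest GENCODE transcript, against 57.4 for EPGN and 240 for TGFA. EGF, the founding ligand of the family, had between 8.75 and 38.2 normalised reads, and was 0.79 higher at d20 (limma adjusted p = 0.0054) and -0.87 at d10 (0.0025), on the log2 scale and neither 2-fold. NRG4, a ligand of ERBB4, had 162, 168 and 186 normalised reads on d0 and 59.2, 57.9 and 55.9 on d15, and it was called lower on d4, d10 and d15, with a log2 fold change of -1.56 on d15 (3.8e-10). NRG2, a ligand of ERBB3 and ERBB4, was called lower at d7 (-1.94, 7.4e-05) and d15 (-1.23, 0.0042) from 25.6 normalised reads at d0. NRG3 had 0 reads in all 21 libraries, which allows up to 3 reads in each.

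Day by day, few members passed 2-fold and the counts were set beside those of all genes. At d1, 1 of 9 members (AREG) was called higher and 1 (ERBB3) lower, where 6.47% and 3.87% of all genes tested were called. At d4, 2 members (AREG and EGFR) were called higher and 1 (ERBB3) lower, beside 9.68% and 5.03%. At d7, 1 (AREG) was higher and 1 (ERBB3) lower, beside 8.79% and 2.93%, and both counts were the same without the outlying library. At d10, 1 (AREG) was higher and 2 (ERBB3 and EPGN) lower, beside 6.94% and 7.34%. The largest number came at d15, when 2 members (AREG and EGFR) were higher and 3 (ERBB3, EPGN and HBEGF) lower, beside 11.7% and 8.66%. At d20, 1 (AREG) was higher and 1 (ERBB3) lower, beside 7.51% and 4.72%.

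With no fold limit, most members passed limma on each day, as did most genes. The number of the 9 members with an adjusted p under 0.05 was 7 on d1 (background 59.8%), 6 on d4 (72.2%), 8 on d7 (67.2%), 7 on d10 (67.8%), 9 on d15 (76.5%) and 7 on d20 (62.7%). Between neighbouring timepoints, 1 member passed 2-fold from d1 to d4 (NRG1, background 6.17%), 1 from d4 to d7 (AREG, 3.78%) and 1 from d7 to d10 (ERBB3, 12.7%). The later steps moved ERBB3, HBEGF and NRG1, 3 members from d10 to d15 (background 22.2%) and the same 3 in the opposite directions from d15 to d20 (15%).

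**Figure D3:**
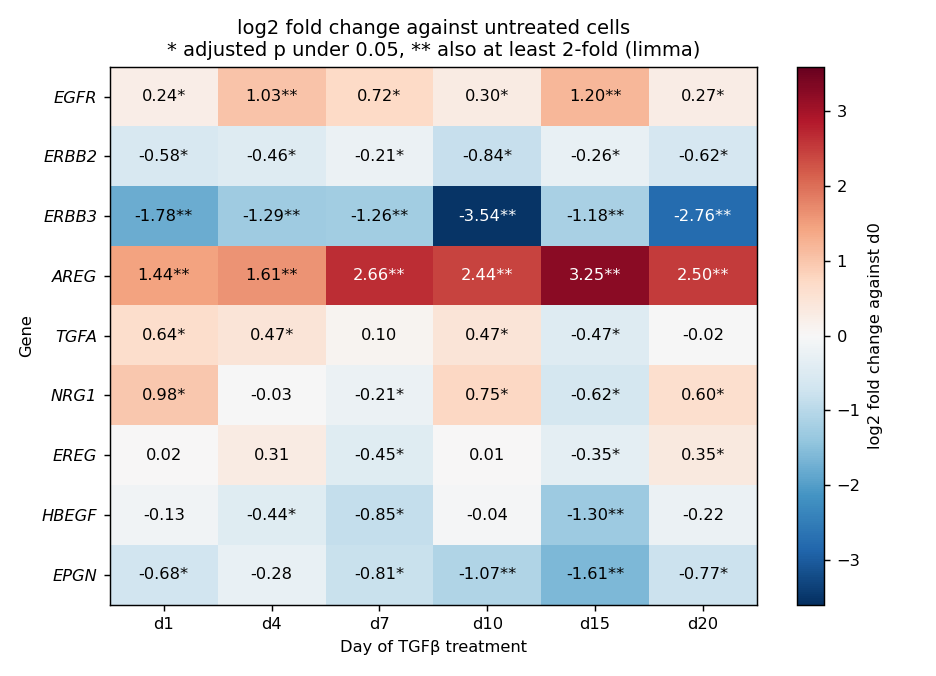
Log2 fold change against d0 (colour and printed value) of the 9 tested members (rows) on each day of TGFβ (columns), with 1 star for a limma adjusted p under 0.05 and 2 stars where the change was also at least 2-fold. ERBB3 is called lower and AREG higher on all 6 days, and the only day on which HBEGF is called is d15.

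The genes around the receptors were read from lists of the pathway. The ligand shedding list holds proteases that release the ligands and regulators of such proteases, among them the inhibitor TIMP3. It had 4 of 11 genes, including TIMP3, called higher on at least 1 day and 0 lower, beside 16.5% and 15.4% of all genes tested. The 4 higher at d4 became 2 after rescaling, and 1 was lower at d7 when rescaled or without the outlying library. ADAM12, a protease that can cut HBEGF and EGF precursors, rose from 9.42 ± 2.42 normalised reads (SD, n = 3) at d0 to 187 ± 13.4 at d10, and TIMP3, which inhibits such proteases, rose from 1961 ± 112 to 7038 ± 87.9 at d15. The list's median log2 fold change lay between 0.23 and 0.41 over the 6 days, where the median of all genes tested lay between 0.00 and 0.03.

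The list of receptor-level inhibitors also held UBASH3B, whose reported link is to slower EGFR removal. Of the 14 genes in this list, 3 (UBASH3B among them) were called higher and 2 lower on at least 1 day, beside 16.5% and 15.4% of all genes tested. The 3 higher at d4 became 1 after rescaling. SOCS3, a suppressor of cytokine signalling, rose from 41.7 ± 12.7 normalised reads to 565 ± 25.6 at d15, and UBASH3B, a phosphatase that has been linked to slower removal of EGFR by CBL, rose from 232 ± 6.90 to 1211 ± 9.23 at d1. LRIG1, a membrane protein that promotes the loss of ERBB receptors, fell from 266 ± 11.4 to 70.5 ± 6.46 at d7, and the ubiquitin ligase CBLC fell from 600.1 ± 29.7 to 286 ± 16.7 at d20. In the endocytosis and sorting list 2 of 12 rose, SH3KBP1, a CBL partner in EGFR uptake (log2 fold change 2.39 at d4), and the adaptor GRB10 (1.25 at d4), and 0 fell, again beside 16.5% and 15.4%.

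Downstream, the ERK-responsive genes were called higher in a larger share than all genes tested on each day. Of 13 tested, 9 were higher on d1, 9 on d4, 6 on d7, 9 on d10, 3 on d15 and 8 on d20. The shares of all genes called higher on these days were 6.47%, 9.68%, 8.79%, 6.94%, 11.7% and 7.51%. In the list 0 were lower on any day (without the outlying library 8 were higher and 1 lower at d7). Their median log2 fold change was 1.72 on d1, 1.85 on d4, 0.92 on d7, 1.74 on d10, 0.48 on d15 and 1.38 on d20, so that d15, the day of the highest EGFR and AREG, had the lowest median. The immediate-early genes FOS and EGR1 had their largest increase at d15 all the same, FOS from 182 ± 56.9 to 2731 ± 151 normalised reads and EGR1 from 1831 ± 458 to 13615 ± 778. The part of EGFR or AREG in their level was not tested.

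The ERK feedback inhibitors, which share DUSP4, DUSP6, SPRY2 and SPRY4 with the ERK-responsive list, had 4 of 9 called higher on each of d1, d4, d10 and d20, 3 on d7 and 1 on d15. The shares of all genes are those given above, and the count at d15 was near its share of 11.7%. At d7 the count was 1 after rescaling to the same total. The phosphatases DUSP4 (238 ± 28.0 to 1551 ± 31.4 normalised reads) and DUSP6 (464 ± 94.0 to 2920 ± 89.3) had the largest increases, both at d10, and SPRY1 fell from 43.1 ± 3.51 to 12.1 ± 2.03 at d20. Of 28 adaptors and kinases of the pathway, 2 were called higher on at least 1 day, GAB2 (1.70 on the log2 scale at d4) and MAP2K1 (1.01 at d10, just past 2-fold as deposited and not when rescaled, quantile-normalised or tested with edgeR or DESeq2), and 0 lower, beside 16.5% and 15.4% of all genes tested.

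**Figure D4:**
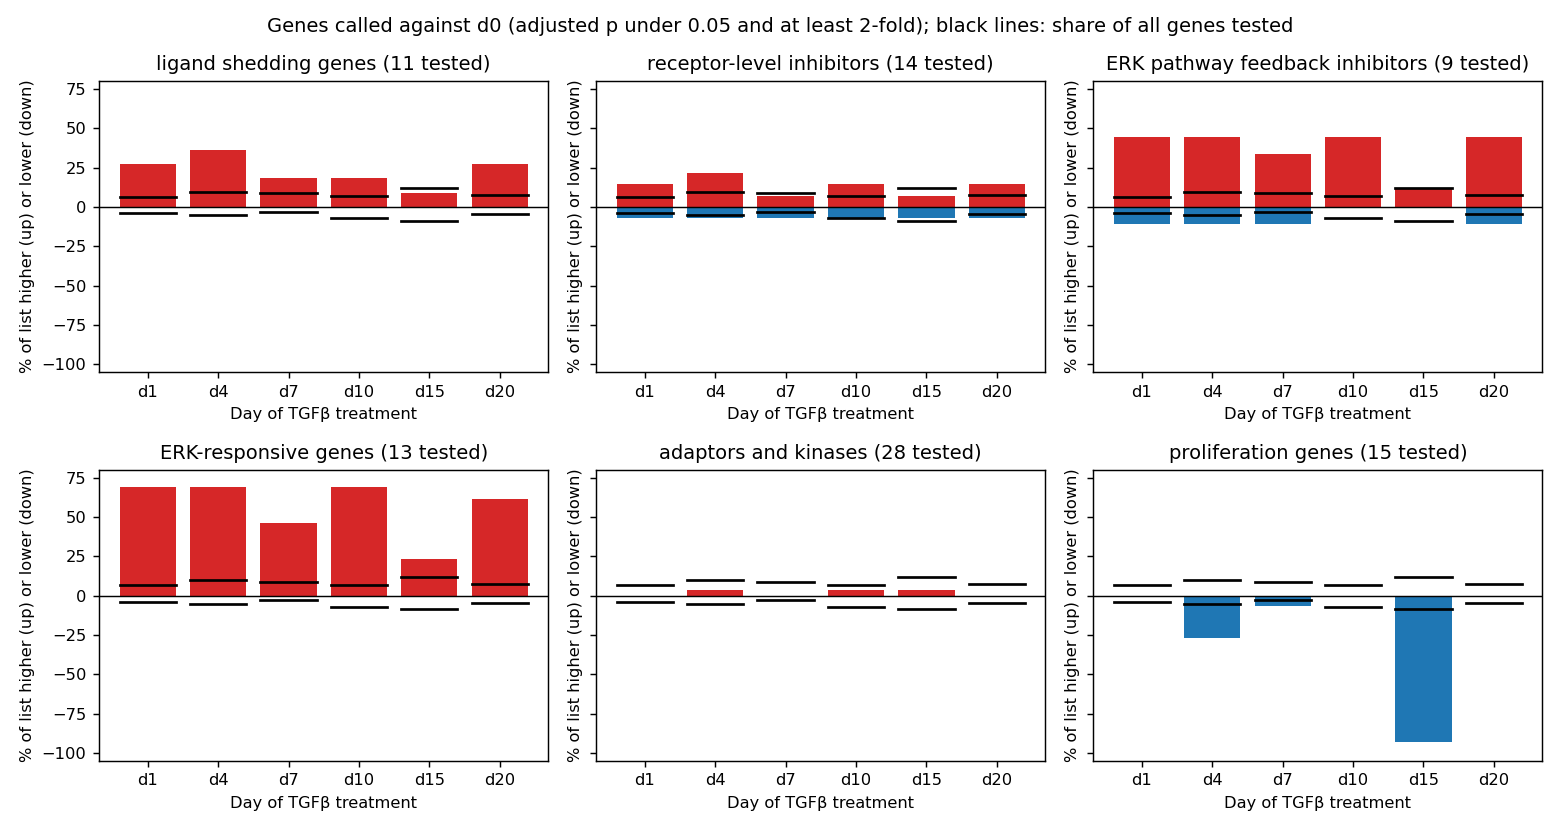
Share of the tested genes of 6 lists (vertical axis, percent) called higher (red, upward) or lower (blue, downward) than d0 on each day of TGFβ, with black lines for the share of all genes tested. The ERK-responsive list reaches 9 of 13 genes at d1, d4 and d10, and 14 of 15 proliferation genes are lower at d15.

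The proliferation genes are given because their level moved with that of several members. Their summed level had a median of 76673 normalised reads on d0, 64292 on d1, 44596 on d4, 51476 on d7, 71193 on d10, 24272 on d15 and 76189 on d20. Of 15 genes, 14 were called lower on d15, 4 on d4 and 1 on d7 (4 on d7 without the outlying library). The shares of all genes called lower were 8.66% on d15, 5.03% on d4 and 2.93% on d7. RRM2 (-2.69) and MCM2 (-2.59), both at d15, were the furthest on the log2 scale. The 2 days with the highest EGFR, d15 and d4, were the 2 days with the lowest proliferation genes. HBEGF and NRG1 were likewise lowest at d15. The part of the growth state in these results was not tested. At d7 the outlying library had a higher summed level, 66726, than the other d7 libraries, the lower of which had 50172.

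The genes whose pattern over the 21 libraries was most like that of a member are given as a description, with Pearson's r of log2 values over libraries that fall into 7 timepoints. They were PLAG1 for EGFR (0.985), ZNF362 for ERBB2 (0.975), MPP7 for ERBB3 (0.978), CHST2 for AREG (0.973), SOX9 for TGFA (0.961), ANXA1 for NRG1 (0.976), LEO1 for HBEGF (0.922), CNTN1 for EPGN (0.884) and PMAIP1 for EREG (0.861). EGFR had 344 genes with r above 0.9 and NRG1 had 287, while EREG and EPGN had 0.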

How the data were processed

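The authors deposited 1 table for the 21 libraries, with a normalised signal per gene symbol. Per the labels RNA was extracted with Trizol, and the submitters' processing notes name STAR 2.7, Salmon 1.4 and hg19. Annotation and strand setting were not given in the sources used here. The size factor of each library was fitted to its own deposited values. Multiplying a deposited signal by that fitted factor returned whole reads for 100% of values (within 0.1 read), which is not an independent check of the factor. The columns carry a timepoint but no replicate number, and the study describes biological triplicates.

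Log2(value + 1) was tested with limma 3.58.1 (R 4.3.3, lmFit and eBayes with a trend), with 1 mean per timepoint over all libraries, for genes with a mean of at least 10. Fold changes on this scale understate those of low genes. P-values were adjusted by Benjamini-Hochberg within each contrast, and 3 reads were taken as the floor, which covers counting error only. edgeR 4.0.16 and DESeq2 1.42.0 on the recovered reads were among 9 alternatives. The scripts were tested on simulated data. Likeness was Pearson's r on the same log scale.

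Members and lists were chosen with earlier results of these data known. All members were named, the other family genes, from each list the 2 called genes that rose most and the 2 that fell most, and the gene most alike to each tested member. Promoters, gene order and names came from RefSeq, and transcript lengths from GENCODE.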

Additional observations from a re-analysis of the deposited data

Results flagged for a closer look

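The members EREG, TGFA and NRG1 passed the test above d0 on 1 day and below d0 on another, and the difference between those days passed too. EREG was higher at d20 and lower at d7 than d0, and d20 was above d7 by 0.80 on the log2 scale (limma adjusted p = 5.3e-05), with the outlying d7 library the lowest of that day. TGFA was higher at d1 and lower at d15, and the days differed by 1.11 (limma adjusted p = 6.5e-15). NRG1 was higher at d1 and lower at d15, with a difference of 1.60 (limma adjusted p = 4.6e-14).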

How the results depend on the processing

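No called change of a member took the other sign under any of the 9 alternatives, against d0 or between neighbouring timepoints. Of 238 recomputed member counts, 37 moved by more than 1.5 times. With no minimum fold change, 4 members were higher and 3 lower at d1, 3 lower at d4, 2 higher and 6 lower at d7, 4 higher at d10, 7 lower at d15, 4 higher and 3 lower at d20, and 5, 6, 7, 9 and 9 changed over the 5 steps. Rescaling to the same total and quantile normalization each left 1 member higher at d4 (EGFR fell below 2-fold, as with edgeR, which also left 1) and made 2 lower at d7, and quantile normalization gave 2 changed from d7 to d10 and 5 from d10 to d15. With no filter 2 were lower at d4 and 2 at d20, since BTC was then tested. With quantile normalization the 2 lower at d10 were ERBB3 and ERBB2, not EPGN. A pseudocount of 10 left 1 lower at d10 and 0 changed from d1 to d4, and a fit of the 2 timepoints alone left 0 from d4 to d7. Leaving out each library gave 1 to 2 higher at d1, 1 to 2 lower at d7, 1 to 2 lower at d10, 0 to 1 changed from d1 to d4, 0 to 1 from d4 to d7, 1 to 2 from d7 to d10 and 2 to 4 from d15 to d20, where the lone change from d1 to d4 was NRG1 and that from d4 to d7 was AREG. Of 1298 recomputed fold changes of single members, 52 no longer passed the adjusted p and 25 newly did. The causes of these moves were not tested beyond those given. No paired analysis was possible because no column shows which replicate it is. BTC, ERBB4 and NRG3 are limited by depth.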
